A study of Mus musculus with 38 samples.

Results

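Naive and primed pluripotency were compared here in mouse cells, as the transcriptomes of 5 embryonic stem cell (ESC) libraries against 4 epiblast stem cell (EpiSC) libraries, chosen by their sample titles out of the 38 samples of the series. ESC are derived from the inner cell mass of the blastocyst, and EpiSC from the epiblast after implantation. ESC came from E3.5 embryos of 129 females crossed with OG2 males (OG2 carries an Oct4-GFP reporter) and grew in N2B27 with the inhibitors CHIR99021 and PD0325901 plus LIF. The labels of ESC replicates 1 and 2 name CBA/CaJ X C57BL/6J as the strain, and those of the other ESC and the EpiSC libraries name none, so the genetic background of the libraries is not settled. EpiSC came from embryos of about E5.5, by the study's methods also of 129 females and OG2 males. EpiSC grew with Activin A and bFGF, without feeder cells in FN medium or on feeders in KFN medium. No gene was deleted and no transgene other than the reporter is named for either group. Cell state and culture medium differed together and cannot be told apart. As a second pair of libraries from the same series, 2 kiPSC libraries (induced pluripotent cells made in iCD1 medium) were set against the 2 kEpiSC libraries (EpiSC carrying a Klf4 transgene) they came from. Nothing in the labels says that replicates were separate derivations, so the p-values speak of how these libraries vary and no further.

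The naive state rests on a network driven by LIF through STAT3 and by WNT through relief of TCF7L1 repression, and it goes with low DNA methylation and 2 active X chromosomes in female cells. The primed state depends on FGF and activin signalling, forms an epithelium, methylates its genome and, in female cells, silences 1 X chromosome. These states are also known for differences in metabolism, in silencing of retroelements and in adhesion, and those programmes are the subject here.

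Library size ran between 3606877 and 8955093 expected counts in ESC and between 2164711 and 2868808 in EpiSC. All 12 naive markers tested were higher in ESC and 11 of 12 primed markers were lower, in keeping with the labels. Gene length less effective length was 73.5 bases in ESC replicates 1 to 4 and 176 bases in ESC replicate 5. In EpiSC it was 189 to 192 bases. Whether this reflects fragment length or the use of single or paired reads is not settled here. Because of this difference, calls were repeated for ESC replicate 5 alone, a fit that takes its spread from the other groups. EpiSC replicate 1 stood apart on the second principal component (6.30% of the variance). Its mesoderm and endoderm markers summed to 1057 TPM (transcript abundance scaled for gene length and library size), against 50 to 144 TPM in the other EpiSC libraries and 17.2 to 44.2 TPM in ESC, and T alone held 764 TPM in it. The naive marker Dppa5a held 279 TPM and Zfp42 6.92 TPM in the same library, against 0 to 1.48 TPM and 0 TPM in the other EpiSC libraries, and its naive markers summed to 489 TPM, against 211 to 275 TPM in the others and 7704 to 10792 TPM in ESC. Sex-linked transcripts differed between the groups as well. The Y-linked gene Eif2s3y held 49.96 to 88.0 TPM in ESC replicates 2 to 5 and 0 TPM in ESC replicate 1, against 39.4 TPM in EpiSC replicate 1 and 0.79 to 2.0 TPM in the other EpiSC libraries. Xist, the RNA that coats the inactive X chromosome, held 0.44 to 4.72 TPM in ESC, against 0.80 TPM in EpiSC replicate 1 and 328 to 417 TPM in the other EpiSC libraries. ESC libraries that mostly held Y-linked transcripts were thus compared with EpiSC libraries that mostly held Xist, and sex cannot be told apart from cell state in those libraries. The kiPSC and kEpiSC libraries all held Eif2s3y (66.1 to 111 TPM), with at most 0.84 TPM of Xist. Fibroblast markers summed to 512 TPM in ESC replicate 5, 8.47 to 49.0 TPM in the other ESC libraries and 27.3 to 194 TPM in EpiSC.

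Of 13923 genes tested with edgeR's quasi-likelihood test, 7092 passed an adjusted p of 0.05 (50.9%). In ESC 3773 were higher (27.1%) and 3319 lower (23.8%), and 4508 differed at least 2-fold (32.4%). The median log2 fold change over all genes tested, ESC over EpiSC, was 0.02. Log2 fold changes are given below with their standard error (SE). With ESC replicate 5 alone, 4957 of 14739 genes passed (33.6%), 2955 of them higher (20%) and 2002 lower (13.6%). Without EpiSC replicate 1, 7151 of 13858 passed (51.6%). Between ESC replicate 5 and the other ESC libraries, 128 genes passed (0.919%). Counts in each list below are read against these shares. Genes picked from a list for the size of their change also had to show no overlap in CPM between groups. Their lack of overlap is thus a condition of choice and not a result.

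Long intergenic non-coding RNAs stood apart from protein-coding genes in direction. Of 252 lincRNA genes tested, 137 rose in ESC (54.4%) and 27 fell (10.7%), with a median log2 fold change of 1.64. Among 13068 protein-coding genes, 26.1% rose and 24.7% fell. With ESC replicate 5 alone the split was 33.6% against 4.84% of 289 lincRNA genes, beside 19.8% against 14.2% of protein-coding genes. In kiPSC over kEpiSC, 84 lincRNA genes rose and 20 fell. With all libraries but EpiSC thinned to the lowest EpiSC total, 97 of 174 rose and 22 fell in ESC over EpiSC. As a share of all counts, lincRNAs took 1.08 to 1.33% in ESC and 0.873 to 1.01% in EpiSC. Genes annotated as antisense split in the same direction (71 of 177 rose and 15 fell), but whether counting used strand is not given in the sources used here, so their reads cannot be told from those of the overlapping genes.

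**Figure D1:**
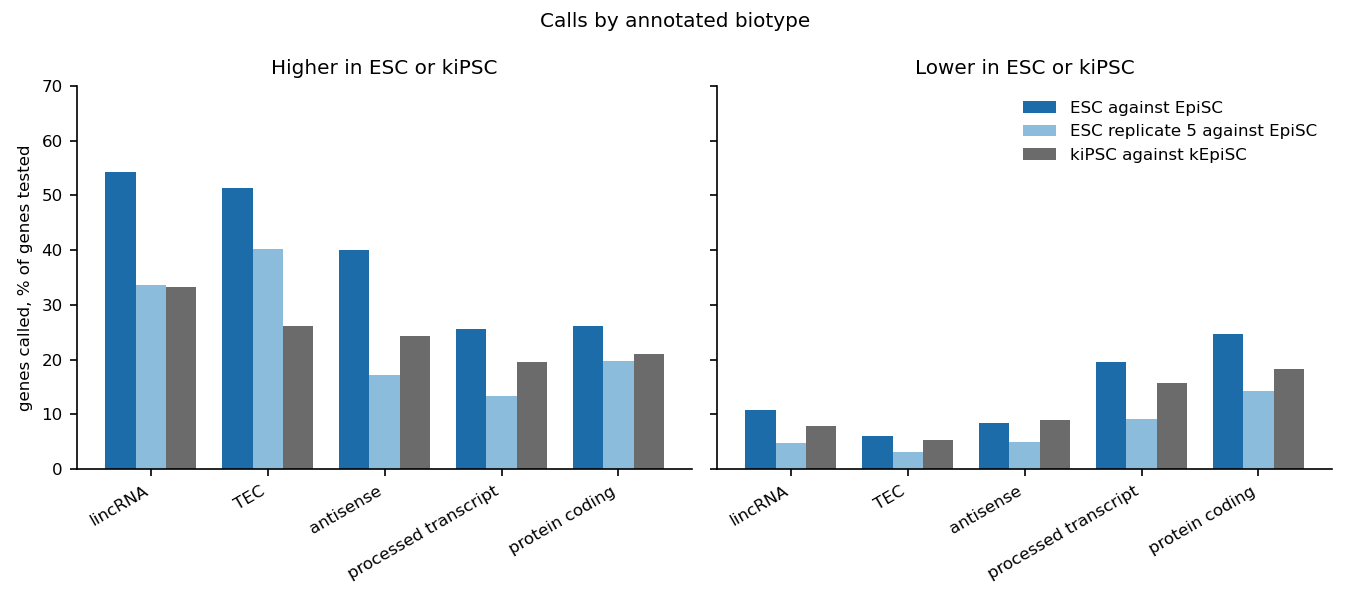
Percent of tested genes of each annotated biotype that were higher (left) and lower (right), for all ESC libraries against EpiSC, ESC replicate 5 against EpiSC and kiPSC against kEpiSC; TEC marks genes annotated as still to be tested experimentally. lincRNA genes rose in 54.4% and fell in 10.7% of cases in ESC, where protein-coding genes rose in 26.1% and fell in 24.7%.

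The Platr RNAs were among them, long non-coding transcripts named for their link to pluripotency in mouse ESC. A rise in ESC is thus partly set by how the list was made and is no separate result. Of its 31 members 19 were tested, and 14 of the 31 held 0 TPM in every EpiSC library. Of 19 tested members of the Platr list, 16 rose and 1, Platr22, fell, with a median of 4.78, or 3.77 with the 4 members at 0 counts in a group set to their bound. Platr7 held 13.6, 16.9, 10.2, 14.2 and 12.3 TPM in the ESC libraries and 0 counts in EpiSC, which makes it at least 31.1-fold higher in ESC, and Platr26 was likewise at least 11.2-fold higher. Both fold bounds set 3 counts over the whole EpiSC group as the floor.

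**Figure D2:**
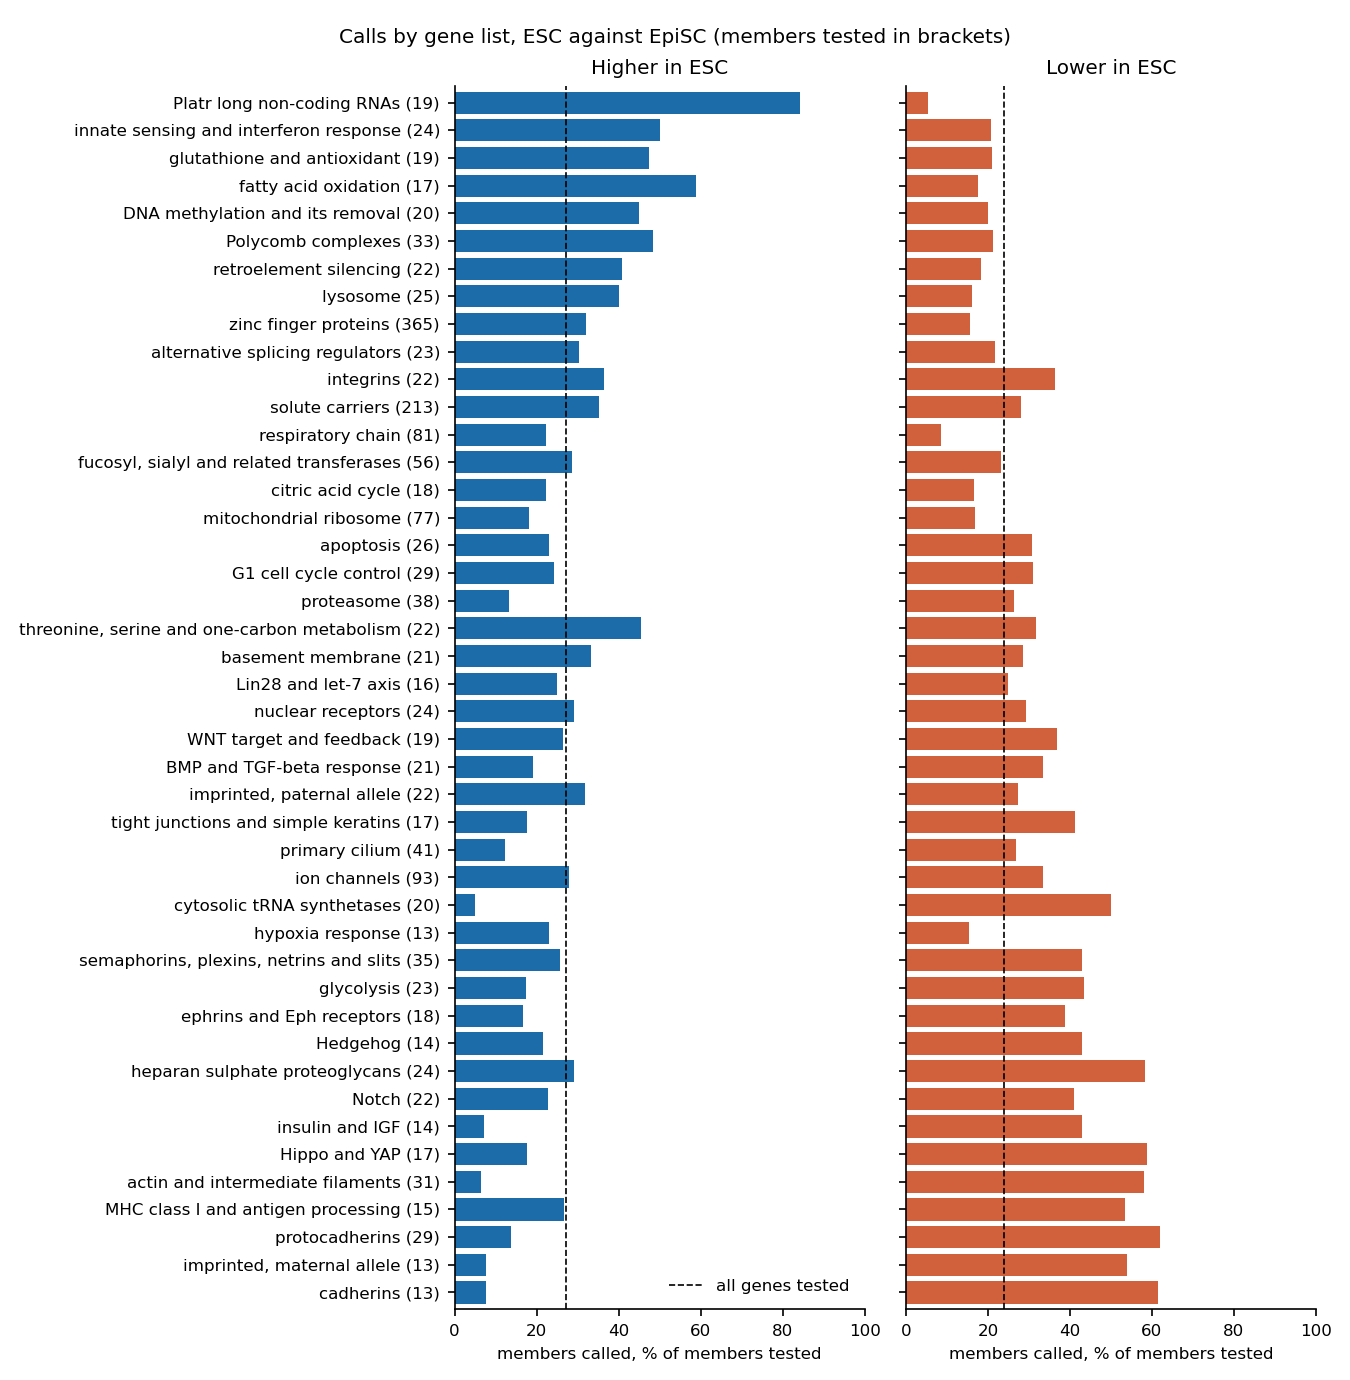
Percent of the tested members of each gene list that were higher (left panel, blue) and lower (right panel, orange) in ESC against EpiSC by edgeR, with the number tested in brackets and a dashed line at the share over all genes tested (27.1% higher and 23.8% lower). Lists run from the highest median log2 fold change (Platr RNAs, 4.78) to the lowest (cadherins, -1.72).

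Glycolysis genes split, with more lower than higher in ESC. In the glycolysis list 10 enzymes and transporters fell in ESC and 4 rose, of 23, with a median log2 fold change of -0.51. Ldha, lactate dehydrogenase A, which converts pyruvate to lactate, held 712, 708, 2831, 659.8 and 926 TPM in ESC and 3948, 3975, 4495 and 3078 TPM in EpiSC. ESC replicate 3 came close to the EpiSC range, the other 4 ESC libraries were far below it, and the groups did not overlap. The log2 fold change was -1.70 ± 0.40 (edgeR, adjusted p = 0.0033). Slc16a3, the lactate exporter MCT4, held 23.6, 36.1, 264, 29.1 and 46.2 TPM in ESC and 278, 424, 552 and 409 TPM in EpiSC, again with ESC replicate 3 highest among ESC, below the lowest EpiSC library. Pgk1 (-1.69) and the glucose transporter gene Slc2a1 (-1.64) fell too, with the Slc2a1 groups overlapping through ESC replicate 3, and Slc2a1 did not pass when ESC was limited to replicates 3 to 5. Without that library 16 of the 23 list members fell. The list summed to 38432 TPM in ESC replicate 3, to 16733 to 20560 TPM in the other ESC libraries and to 29545 to 39946 TPM in EpiSC.

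Some glycolytic isoforms went the other way. Hk1, a hexokinase bound to mitochondria, held 59.2, 88.2, 117, 105 and 117 TPM in ESC and 20.9, 14.7, 22.7 and 13.6 TPM in EpiSC, without overlap (log2 fold change 2.35 ± 0.25; edgeR, adjusted p = 8.56e-06). Pfkp, a phosphofructokinase, rose by 2.88 ± 0.40 and Ldhb, the lactate dehydrogenase subunit favouring lactate use, by 1.62 ± 0.37 on the log2 scale. The median share of Ldhb in the TPM of both lactate dehydrogenase genes was 36.5% in ESC (14.9 to 50.8%) and 3.44% in EpiSC (2.79 to 6.76%). Ldhb did not pass with ESC replicate 5 alone (edgeR, adjusted p = 0.0819).

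Fatty acid oxidation moved mostly upward: 10 of 17 members rose and 3 fell, with a median of 0.53. Cpt1a (ENSMUSG00000024900, mm10 chromosome 19, 3322334 to 3385733, plus strand), which commits long-chain fatty acids to mitochondria, held 49.4, 86.8, 70.8, 69.4 and 116 TPM in ESC and 4.34, 1.24, 1.67 and 2.70 TPM in EpiSC. Every ESC library lay above every EpiSC library, and the log2 fold change was 4.96 ± 0.38 (edgeR, adjusted p = 4.82e-07). The carnitine carrier gene Slc25a20 (2.96) and the medium-chain dehydrogenase gene Acadm (1.15) rose with it, while the long-chain dehydrogenase gene Acadl fell (-2.32). Of 81 respiratory chain genes 18 were higher (22.2%) and 7 lower (8.64%). Both lay below the shares over all genes tested (27.1% and 23.8%). The lean depended on the setting, with 30 higher and 3 lower without EpiSC replicate 1, 5 and 5 with ESC replicate 5 alone, and 17 or 18 higher and 17 lower with limma on TPM. Cox7a1, a cytochrome oxidase subunit known from heart and muscle, held 146, 126, 89.6, 75.5 and 219 TPM in ESC and 34.0, 47.0, 35.6 and 41.4 TPM in EpiSC, and its share of the Cox7a1 and Cox7a2 total was 27.5% in ESC (18.6 to 48.4%) and 11.6% in EpiSC (8.71 to 13.7%).

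Threonine, methyl group and redox genes differed gene by gene. Tdh, threonine dehydrogenase, which feeds one-carbon metabolism in mouse ESC, held 644, 624, 388, 819 and 483 TPM in ESC and 43.1, 3.76, 4.80 and 5.78 TPM in EpiSC, with EpiSC replicate 1 highest of its group. Its log2 fold change was 5.33 ± 0.63 (edgeR, adjusted p = 1.84e-05). Bhmt, which remethylates homocysteine from betaine, held 136, 76.3, 8.45, 114 and 19 TPM in ESC and 0 counts in EpiSC, so it was at least 256-fold higher, and its neighbour Bhmt2 rose by 4.89 ± 0.58. The serine synthesis genes Phgdh (-0.95) and Psat1 (-0.87) and the mitochondrial folate gene Mthfd2 (-1.05) fell. In the glutathione list 9 of 19 rose and 4 fell: glutathione synthetase Gss held 106, 149, 52.8, 113 and 162 TPM in ESC and 16.3, 19.1, 25.4 and 15.7 TPM in EpiSC, and the quinone reductase gene Nqo1 rose by 2.97, whereas the cystine transporter gene Slc7a11 fell by 3.49 ± 0.44 on the log2 scale. Of 25 lysosome genes 10 rose and 4 fell, among them the protease gene Ctsc (3.12) and the hydrolase gene Glb1 (1.98), both higher.

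**Figure D3:**
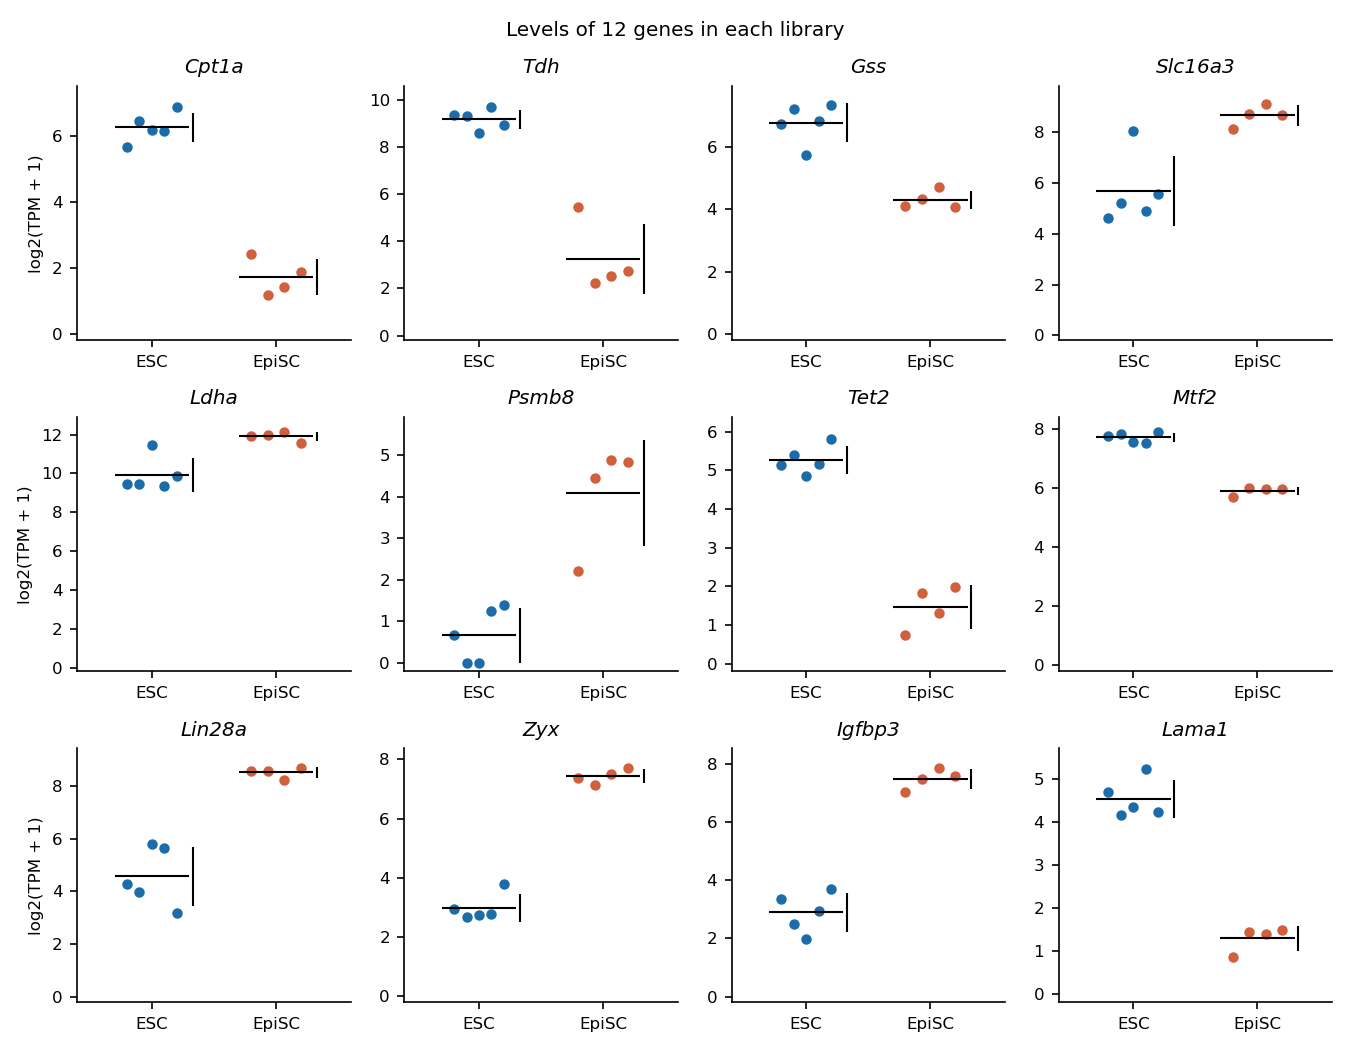
Levels of 12 genes as log2(TPM + 1) in each library, with 1 point per library, ESC (blue) left of EpiSC (orange), a line at the group mean and a bar for the SD over 5 and 4 libraries. The groups do not overlap in any panel, which was a condition for picking genes from the lists. ESC replicate 3 comes close to EpiSC for Ldha and Slc16a3.

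Cytosolic aminoacyl-tRNA synthetases, which charge tRNAs with amino acids, changed little: 10 of 20 fell (6 with ESC replicate 5 alone) and 1 (Dars) rose, with a median of -0.40. Sars held 246, 215, 283, 253 and 252 TPM in ESC and 453, 529, 527 and 335 TPM in EpiSC, a log2 fold change of -0.86 ± 0.15 (edgeR, adjusted p = 0.000304). Yars (-0.78), Gars (-0.60) and Iars (-0.58) fell as well, whereas Aars (0.11) and Tars (0.05) did not pass the test. Gars and Iars did not pass with ESC replicate 5 alone. ATF4, which induces many of these genes under amino acid shortage, binds sites containing TGATGNAA (T, G, A, T, G, any base, A, A). Both strands of the RefSeq promoter windows (GRCm38.p6, 250 bases before to 50 after each start) were searched, and 5 of the 12 synthetase genes with a window held this motif, against 4.06% of all 27025 promoters and 2.16% of promoters of tested genes. Of the 5, Gars, Iars and Yars fell and Aars and Tars did not pass the test, and 1 of the 7 without the motif fell. The remaining synthetase genes had no window and were not searched. They held more of the 10 falls than the 12 searched genes did, so the split by motif covers only part of the list. The 20 windows of the threonine and one-carbon list held none. The stretches around the motif (capitals) are shown for the 3 that fell, as the sequences these counts rest on.
Gars (chr6:55037941-55038008, plus strand): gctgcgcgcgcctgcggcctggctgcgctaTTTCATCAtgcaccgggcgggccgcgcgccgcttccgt
Iars (chr13:49682107-49682174, plus strand): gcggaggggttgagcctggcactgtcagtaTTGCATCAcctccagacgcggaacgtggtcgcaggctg
Yars (chr4:129189876-129189943, plus strand): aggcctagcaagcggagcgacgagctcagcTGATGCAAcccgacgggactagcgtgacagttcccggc

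DNA methylation genes changed in both directions. The maintenance and demethylation genes Dnmt1, Uhrf1, Tet1 and Tet2 were among 9 of 20 list members that rose, and the de novo enzymes Dnmt3a and Dnmt3b were among 4 that fell. Tet2, which oxidises 5-methylcytosine, held 34.5, 41.5, 27.8, 34.9 and 55.5 TPM in ESC and 0.66, 2.54, 1.46 and 2.97 TPM in EpiSC, without overlap. Its log2 fold change was 4.28 ± 0.31 (edgeR, adjusted p = 3.34e-07). Dnmt3b held 59.8, 61.3, 51.7, 49.5 and 69.8 TPM in ESC and 596, 298, 350.0 and 179.9 TPM in EpiSC (-2.76 ± 0.30). Dnmt3a fell by 1.04 ± 0.31 on the log2 scale, a call absent with ESC replicate 5 alone, with ESC replicates 3 to 5 and with limma on TPM. Dnmt3l, the catalytically inactive partner of the de novo enzymes, held 3.32, 14.0, 160.3, 7.06 and 7.91 TPM in ESC and 0.46, 0.43, 0 and 0.44 TPM in EpiSC, with ESC replicate 3 far above the other 4. It rose, unlike its partners, and the demethylation gene Tet3 did not pass the test. Fewer cells of a type and less RNA per cell cannot be told apart in such bulk samples.

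Polycomb genes were more often higher, 16 of 33 against 7 lower, with a median of 0.42. The core PRC2 subunit gene Suz12 held 278, 258, 135, 249 and 267 TPM in ESC and 70.3, 66.5, 69.7 and 74.5 TPM in EpiSC. ESC replicate 3 was the lowest ESC library and still above EpiSC, and the log2 fold change was 1.69 ± 0.18 (edgeR, adjusted p = 6.44e-06). The PRC2 accessory genes Epop (1.94) and Mtf2 (1.85) rose, and the PRC1 genes Phc1 (-1.24) and Phc2 (-1.68) fell. Among zinc finger protein genes, many of which repress retroelements, 117 of 365 rose (32.1%) and 57 fell (15.6%), with a median of 0.19. Over all genes tested 27.1% rose and 23.8% fell, so the rises lay little above that share. Zfp57, which protects imprints, rose by 2.32 ± 0.20 and Zfp809, which silences proviruses, by 1.84 ± 0.26. Zfp640 had 0 counts in EpiSC and was at least 147-fold higher in ESC, with 97.3, 124, 60.0, 107 and 138 TPM. Zfp608 went the other way, 0, 0, 0.07, 0.08 and 0.39 TPM in ESC and 11.8, 23.2, 23.3 and 25.6 TPM in EpiSC.

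Imprinted genes did not all move together, and falls were more frequent among the maternally expressed ones. Of 13 maternally expressed genes, 7 fell and 1 rose with a median of -1.57, while of 22 paternally expressed genes 7 rose and 6 fell. Meg3 (-1.65) and Mirg (-1.66), transcripts of 1 domain, fell together, with Mirg lost in ESC replicate 5 alone. Plagl1, a zinc finger regulator of imprinted growth genes, held 174, 122, 124, 136 and 208 TPM in ESC and 2.79, 6.64, 5.95 and 27.4 TPM in EpiSC, with EpiSC replicate 4 above its group. Peg3 (-2.10), Snrpn (-1.92) and Magel2 (-6.14) fell and Slc38a4 rose (3.19). H19 and Igf2 did not pass, though H19 did with ESC replicate 5 alone, and Igf2 without ESC replicate 5, with ESC replicates 1 and 2 alone and with the replicate block. H19 held 22.5, 2.88, 71.3, 32.2 and 246 TPM in ESC, and ESC replicate 5, which is highest, is also the library with 512 TPM of fibroblast markers, whose part in the value was not tested.

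Lin28a, which blocks let-7 maturation, held 18.7, 14.8, 54.6, 48.7 and 8.08 TPM in ESC and 379, 376, 297 and 406 TPM in EpiSC, without overlap. The log2 fold change was -3.77 ± 0.46 (edgeR, adjusted p = 2.33e-05), and Lin28b (-4.26) and the let-7 target Hmga1 (-1.11) fell with it. Of the list of 16, 4 fell and 4 rose. The epithelial splicing regulators parted, with Esrp1 at 0.85, 0.94, 4.41, 1.89 and 0.42 TPM in ESC and 74.4, 44.4, 56.2 and 29.1 TPM in EpiSC, and Esrp2 at 12.7, 12.3, 10.7, 18.2 and 11.2 TPM in ESC and 5.56, 1.75, 3.11 and 3.78 TPM in EpiSC. Esrp1 fell by 5.16 ± 0.51 and Esrp2 rose by 1.62 ± 0.31 on the log2 scale. Ftx, a non-coding activator of Xist, fell by 2.45 ± 0.29.

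Signalling lists mostly held more genes that fell. In the lists counted next, 33.3 to 42.9% of members tested fell and 7.14 to 26.3% rose. The shares over all genes tested were 23.8% and 27.1%. WNT gave 5 higher (8 without EpiSC replicate 1 and 3 without EpiSC replicate 3) and 7 lower of 19. BMP and TGF-beta gave 4 and 7 of 21, Notch 5 and 9 of 22, Hedgehog 3 and 6 of 14, and insulin and IGF 1 and 6 of 14. In kiPSC over kEpiSC the lean was weaker for WNT (4 and 5), BMP and TGF-beta (4 and 5) and Hedgehog (2 and 2). Notch (4 and 8) and insulin and IGF (0 and 7) kept it there. Over all genes tested 21.2% rose and 17.6% fell in kiPSC. The WNT feedback gene Notum held 175, 111, 29.5, 195 and 53.9 TPM in ESC and 3.01, 2.33, 0 and 1.74 TPM in EpiSC, and Cdx1, a caudal homeobox WNT target, held 133, 45.9, 29.6, 50.2 and 37.5 TPM in ESC and 0.48, 0, 0 and 0 TPM in EpiSC. Both rose, and the ligand gene Wnt3 fell by 4.82 ± 0.71. The ESC medium holds CHIR99021, an activator of WNT signalling, and its part cannot be told apart from that of the cell state. Lef1, a WNT transcription factor, fell by 1.73 ± 0.67, a call that 11 alternatives removed. Inhibitors of differentiation parted as well, in that Id4 rose by 3.60 ± 0.53 and Id1, a BMP and SMAD target, fell by 2.64 ± 0.38 on the log2 scale.

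In the Notch list the receptors went opposite ways, Notch1 up (1.15) and Notch3 down (-1.46). Maml3, a coactivator, held 0.61, 0.20, 0.45, 0.55 and 0.03 TPM in ESC and 3.83, 6.04, 8.25 and 7.64 TPM in EpiSC. In Hedgehog signalling the transducer gene Smo fell by 2.17 ± 0.19 and its inhibitor and target Ptch1 rose by 1.34 ± 0.25. Gli2 rose by 1.77 ± 0.34 and Gli3 fell by 1.76 ± 0.33, so that the Gli2 share of their TPM was 85.4% in ESC (74.2 to 87.0%) and 36.9% in EpiSC (30.2 to 40.0%). Gli3 did not pass with ESC replicate 5 alone. Of 41 cilium genes, which serve this pathway, 11 fell (26.8%) and 5 rose (12.2%). Over all genes tested 23.8% fell and 27.1% rose, so the falls lay near that share.

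The Hippo list gave 10 lower and 3 higher of 17, and Amot, an angiomotin that holds YAP at junctions, held 4.16, 0.69, 0.93, 0.24 and 1.26 TPM in ESC and 32.4, 19.9, 59.2 and 27.7 TPM in EpiSC. With ESC replicate 5 alone the list gave 3 lower and 3 higher. Tead4, the trophoblast partner of YAP, rose by 3.02 ± 0.34 and took 16.6% of the Tead4 and Tead2 total in ESC (10.2 to 19.6%) against 0.976% in EpiSC (0.585 to 1.46%). The receptor gene Epha1 fell by 7.48 ± 0.51, the ephrin gene Efnb2 fell by 3.95 ± 0.47, the semaphorin gene Sema6a fell by 6.66 ± 0.26 and the growth factor binding protein gene Igfbp3 fell by 4.66 ± 0.32. Myc, a growth regulator, held 1.77, 2.29, 2.15, 7.14 and 3.50 TPM in ESC and 45.2, 78.3, 112 and 78.3 TPM in EpiSC, while the cyclin genes parted, in that Ccnd2 fell by 4.57 ± 0.80 and Ccnd3 rose by 1.22 ± 0.14.

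**Figure D4:**
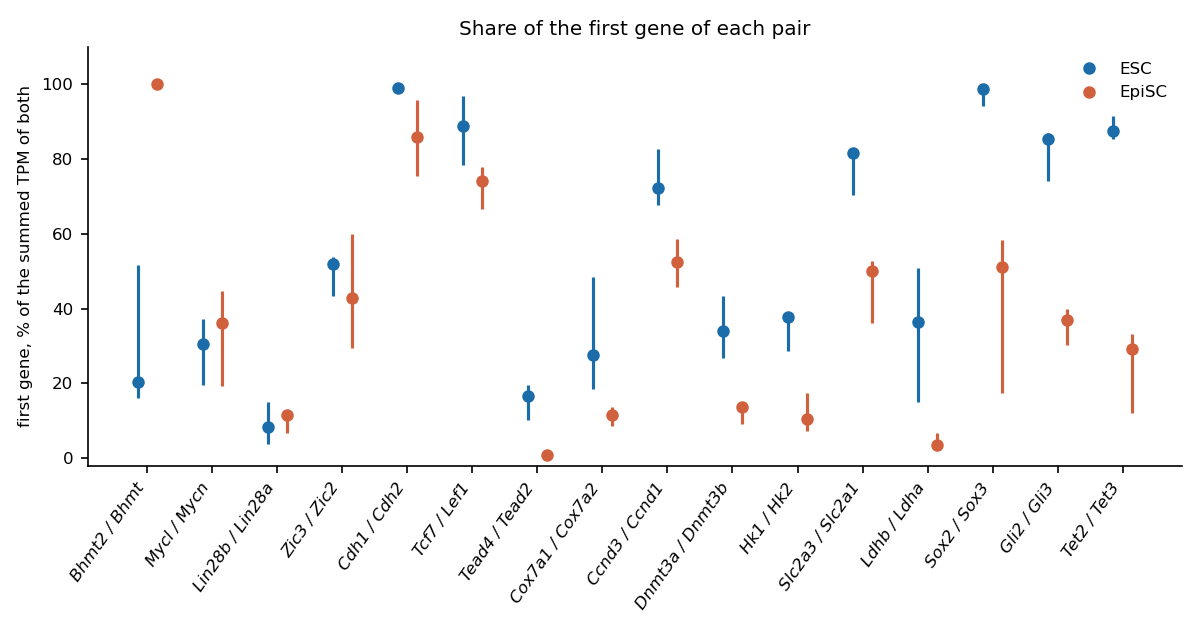
Share of the first gene in the summed TPM of 16 pairs of related genes, in percent, with the median (point) and the range (line) over 5 ESC libraries (blue) and 4 EpiSC libraries (orange). Tet2 took a median of 87.5% of the Tet2 and Tet3 total in ESC and 29.2% in EpiSC.

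Antigen presentation and innate sensing moved apart. The innate sensing and interferon list had 12 of 24 higher and 5 lower with a median of 0.80, and the MHC class I list 4 of 15 higher and 8 lower with a median of -1.07. Trim25, which activates RIG-I, held 79.5, 95.1, 94.6, 95.6 and 104 TPM in ESC and 17.3, 0.50, 0.48 and 1.10 TPM in EpiSC, with EpiSC replicate 1 the highest of its group. Ifitm1 rose by 3.82 ± 0.32 and Ifitm3, an entry restriction factor, by 3.33 ± 0.23. The immunoproteasome gene Psmb8 held 0.59, 0, 0, 1.38 and 1.63 TPM in ESC and 3.62, 20.9, 28.4 and 27.3 TPM in EpiSC, without overlap. Psmb8 fell by 4.91 ± 0.64 (edgeR, adjusted p = 4.37e-05), its partner Psmb9 fell by 3.37 ± 0.50, Psmb10 fell by 2.52 ± 0.23, and the peptide transporter gene Tap1 fell by 1.72 ± 0.50 on the log2 scale. Of the 4 higher calls of the MHC class I list, 0, 1 and 2 were made without EpiSC replicate 2, 3 and 4 in turn, and the innate list had 2 or 3 lower calls without ESC replicate 1 or 2 or EpiSC replicate 3. Tap1 did not pass with ESC replicate 5 alone or with ESC replicates 3 to 5. Psma8, a proteasome subunit of germ cells, held 34.7, 25.8, 40.0, 18.9 and 30.3 TPM in ESC and a single EpiSC library above 0, and its ratio was 92.4 (95% counting interval 31.5 to 449). Among 38 proteasome genes 5 rose (13.2%) and 10 fell (26.3%), against 9 and 6 without EpiSC replicate 1. The falls lay near the 23.8% over all genes tested.

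Actin cytoskeleton genes were mostly lower in ESC, and 18 of 31 actin and intermediate filament genes fell and 2 rose, with a median of -1.04, against 14 and 1 with ESC replicate 5 alone. Zyx, zyxin, a focal adhesion protein, held 6.69, 5.41, 5.77, 5.84 and 13 TPM in ESC and 165, 141, 182 and 210.3 TPM in EpiSC, without overlap. The log2 fold change was -4.56 ± 0.24 (edgeR, adjusted p = 2.78e-08). Tagln (-5.31), Acta1 (-4.36), Myl9 (-3.84) and Cnn2 (-3.08), which encode contractile proteins of smooth and skeletal muscle, fell, and so did Actg1 (-0.83; not with ESC replicate 5 alone), while Actb rose by 0.76 ± 0.14. Fibroblasts also express many of these genes. ESC replicate 5, with the highest fibroblast marker sum (512 TPM), was the highest ESC library for Zyx, and EpiSC replicate 1, with the lowest sum of the EpiSC (27.3 TPM), held 165 TPM of Zyx. Tagln held 22.4, 106, 143 and 319.6 TPM in EpiSC, lowest in EpiSC replicate 1, as the fibroblast sum was, and the part of fibroblasts in these levels was not tested.

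Serum response factor binds the CArG box, an AT-rich motif, in actin promoters. Of the 31 list genes 27 had a promoter window, and the rest were not searched. In 5 windows the box was found (Acta1, Actg1, Cnn2, Myl9 and Vcl), against 1.57% of all promoters and 1.37% of promoters of tested genes. All 5 fell, as did 12 of the 22 without a match, though Vcl overlapped between groups and did not pass with ESC replicate 5 alone. The stretches from RefSeq (GRCm38.p6) are shown for Acta1, Actg1, Cnn2 and Myl9, with the box in capitals. Vcl, whose groups overlapped, is not shown.
Acta1 (chr8:123894794-123894893, minus strand): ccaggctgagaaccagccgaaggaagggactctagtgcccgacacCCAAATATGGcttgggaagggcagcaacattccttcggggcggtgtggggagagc
Actg1 (chr11:120348531-120348630, minus strand): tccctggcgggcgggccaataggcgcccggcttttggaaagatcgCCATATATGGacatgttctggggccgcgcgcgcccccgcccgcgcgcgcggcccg
Cnn2 (chr10:79988499-79988598, plus strand): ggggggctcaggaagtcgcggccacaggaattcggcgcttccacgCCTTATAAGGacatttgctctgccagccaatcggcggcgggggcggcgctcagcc
Myl9 (chr2:156775258-156775357, plus strand): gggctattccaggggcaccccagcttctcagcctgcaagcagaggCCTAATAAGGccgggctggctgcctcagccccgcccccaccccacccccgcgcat

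Cadherin genes of both kinds were mostly lower. Of 29 protocadherins 18 fell and 4 rose (median -1.46), and of 13 cadherins 8 fell and 1 rose (median -1.72). With only ESC and EpiSC in the fit 8 protocadherins and 4 cadherins fell, 9 and 5 fell with ESC replicate 5 alone, and in thinned libraries 4 cadherins fell and 0 rose. Integrins, the receptors for matrix, gave 8 higher and 8 lower of 22 (36.4% each, median 0.17). Basement membrane genes gave 7 higher and 6 lower of 21 (33.3% and 28.6%). Over all genes tested 27.1% rose and 23.8% fell. Cdh2, N-cadherin, held 5.93, 3.43, 3.0, 2.75 and 3.8 TPM in ESC and 13, 31.6, 32.2 and 44.4 TPM in EpiSC. Its log2 fold change was -3.03 ± 0.30 (edgeR, adjusted p = 4.37e-06), whereas Cdh1, E-cadherin, had 0.45 ± 0.22 and did not pass (edgeR, adjusted p = 0.099), though it did without EpiSC replicate 1 and with limma on TPM. Pcdh1 fell by 6.18 ± 0.54. The simple epithelial keratins Krt8 (-3.28) and Krt18 (-3.93) fell, the tight junction gene Cldn6 fell by 3.80 ± 0.42, and Cldn4 rose by 2.69 ± 0.47. Laminin genes parted, Lama1 at 25.0, 16.9, 19.3, 36.8 and 17.9 TPM in ESC and 0.80, 1.70, 1.61 and 1.82 TPM in EpiSC. Lamb1 fell by 2.05 ± 0.29, nidogen Nid1 rose by 3.72 ± 0.44 and fibronectin Fn1 by 2.50 ± 0.41. Fibroblasts make these matrix proteins too. Fn1 held 578, 626, 811, 841 and 905 TPM in ESC and 30.5, 105, 159 and 223 TPM in EpiSC, while fibroblast markers summed to 8.47 to 49.0 TPM in ESC replicates 1 to 4, 512 TPM in ESC replicate 5 and 27.3 to 194 TPM in EpiSC. Their part in the Fn1 levels was not tested.

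Glycan and transporter genes changed in both directions. Heparan sulphate genes fell in 14 of 24 cases and rose in 7, where Hs6st2, a 6-O-sulphotransferase gene, fell by 4.49 ± 0.68 and the proteoglycan gene Sdc4 rose by 2.07 ± 0.25. Galnt6, which starts mucin-type O-glycans, rose by 5.95 ± 0.73, and Fut1, a fucosyltransferase, had a ratio of 112 (95% counting interval 30.1 to 938). Among 213 solute carriers 75 rose and 60 fell. The zinc importer gene Slc39a8 held 0, 0, 0.26, 0 and 0.29 TPM in ESC and 7.79, 102, 178 and 67.8 TPM in EpiSC, and Slc7a7, an amino acid exchanger subunit, fell by 4.59 ± 0.28. The potassium channel gene Kcnj3 fell by 8.39 ± 0.62. Rxrg, a retinoid receptor, had 0 counts in ESC and was at least 73.8-fold lower there, with 8.05, 8.95, 10.1 and 7.47 TPM in EpiSC. Carbonic anhydrase genes also fell, with Car4 at 0, 0, 0.35, 0 and 0 TPM in ESC and 77.5, 5.36, 9.96 and 5.51 TPM in EpiSC, a call lost with ESC replicate 5 alone, and Car14 at 0.53, 0, 0.87, 0 and 0.29 TPM in ESC and 35.4, 80.3, 69.0 and 44.6 TPM in EpiSC. The interferon-induced gene Gbp2 fell by 7.03 ± 0.85.

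kiPSC over kEpiSC gave 5394 calls among the same 13923 genes (38.7%; 21.2% higher and 17.6% lower), with no library shared with ESC and EpiSC. Of the 7092 genes called in ESC over EpiSC, 4521 were called in the same direction there (63.7%, or 83.8% of the kiPSC calls) and 10 in the opposite one. In kiPSC, 16 actin list members fell and 1 rose, and 10 tRNA synthetases fell and 0 rose. There 12 glycolysis genes fell and 2 rose, and 13 Platr RNAs rose and 1 fell. Platr rises, here and below, are partly set by how that list was made. Fatty acid oxidation (10 higher and 2 lower) and innate sensing (12 and 3) kept their lean. Other lists leaned less than in ESC: respiratory chain 7 higher and 7 lower, Polycomb 10 and 7, protocadherins 5 and 9, and Hedgehog 2 and 2. With ESC replicate 5 alone, 13 glycolysis genes fell and 2 rose, 7 fatty acid oxidation genes rose and 1 fell, 14 Platr RNAs rose and 0 fell, and 9 protocadherins fell and 3 rose. The hypoxia list gave 2 higher and 10 lower in kiPSC and 3 higher and 2 lower in ESC (9 lower without ESC replicate 3, 1 lower without EpiSC replicate 1 or 3), and the mitochondrial ribosome list 5 higher and 9 lower in kiPSC and 14 higher and 13 lower in ESC. For the mitochondrial ribosome list in ESC, ESC replicate 5 alone gave 1 higher and 18 lower, leaving out ESC replicate 2 or EpiSC replicate 2, 3 or 4 gave 7 to 9 higher, and leaving out EpiSC replicate 1 gave 4 lower.

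The difference between both comparisons was tested per gene, and 20 genes passed (0.144%). Khdrbs2, a splicing regulator, held 469.8, 450.4, 465, 445 and 256 TPM in ESC and 50.8, 52.1, 65.4 and 50.1 TPM in EpiSC (log2 fold change 3.21 ± 0.25), against -0.28 in kiPSC over kEpiSC, a difference of 3.49 ± 0.41 (edgeR, adjusted p = 0.00597). Klf4, which kEpiSC carry as a transgene, changed by 7.18 in ESC and 1.72 in kiPSC. Of the 21 BMP and TGF-beta list members, 2 (Pmepa1 and Smad7) were among the 20, both induced by TGF-beta signals and feeding back on it. Pmepa1 changed by -1.60 in ESC and 0.66 in kiPSC, and Smad7 changed by 0.42 in ESC, a call that 16 alternatives removed, and 2.16 in kiPSC. Nodal, the ligand of this pathway, changed by -0.48 in ESC, which did not pass, and by 2.24 in kiPSC. Smad7, Nodal, H19, Igf2 and Klf4 were named after their values were seen.

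The X chromosome set 1 ESC library apart. Over 401 X-linked genes with a mean of at least 5 CPM (counts scaled to library size), ESC replicate 1 lay above the mean of the other ESC libraries for 365 of them (91.0%), with a median log2 difference of 0.54, against 43.8% of autosomal genes. In ESC replicates 2, 3 and 4 19.7 to 20.7% of X genes lay above, in replicate 5 48.4%, and in the EpiSC libraries 41.9 to 50.9%. ESC replicate 1 is part of the mean that the other ESC libraries were set against, which lowers their shares. ESC replicate 1 was also the ESC library with 0 TPM of the Y-linked gene Eif2s3y.

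**Figure D5:**
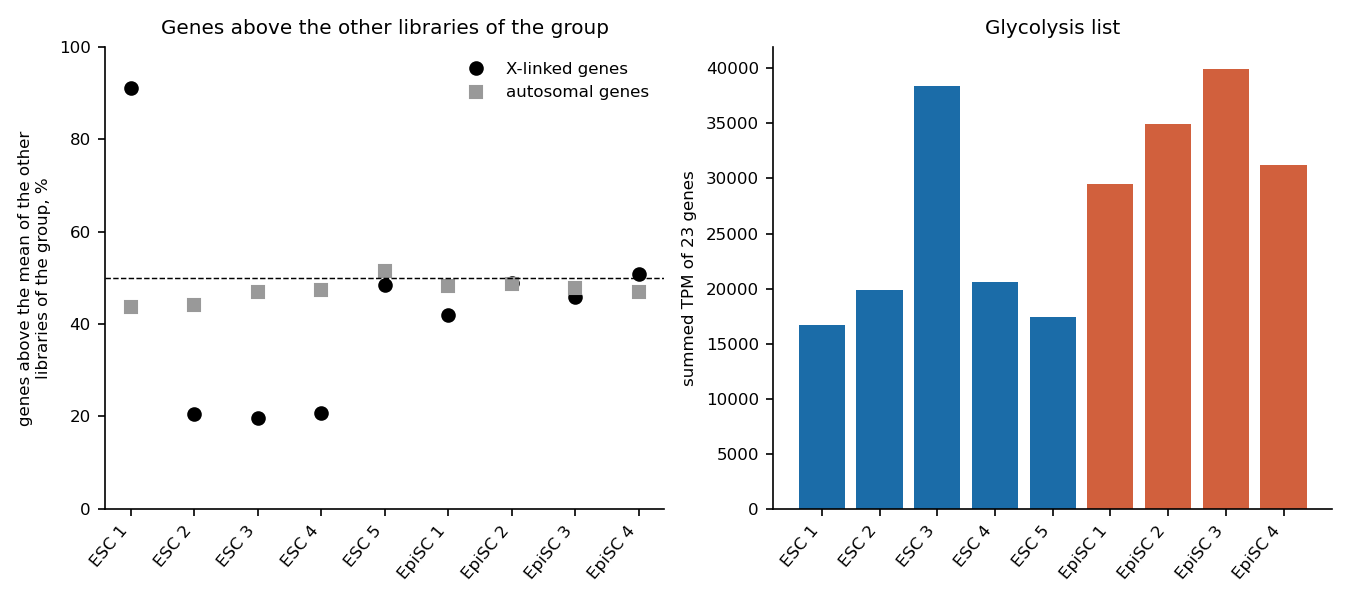
Left, percent of X-linked genes (black circles) and autosomal genes (grey squares) whose level in a library lay above the mean of the other libraries of its group, with a dashed line at the midpoint. Right, summed TPM of the 23 glycolysis genes in each library. ESC replicate 1 stands at 91.0% for X-linked genes, and ESC replicate 3 reaches 38432 TPM of glycolysis genes, within the EpiSC range.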

How the data were processed

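RNA-seq of 13 of the 38 libraries was analysed (5 ESC, 4 EpiSC, 2 kEpiSC and 2 kiPSC), grouped by their titles. The labels name TRIzol, a TruSeq RNA kit and a NextSeq 500, whereas the study's methods name a VAHTS mRNA-seq kit. Per the labels, bcl2fastq, Bowtie2, RSEM and the mm10 build were used; versions and the strand setting are not stated in the sources used here. The deposited tables hold 29267 genes with RSEM expected counts (estimated reads per gene, not normalized). They also hold TPM, in which the authors scaled counts by effective length and library, and FPKM, deposited by the authors but not used here. Deposited lengths and effective lengths are in bases. Mitochondrial genes number 0 in the tables. Gene names and biotypes came from the GENCODE annotation of the same build.

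Expected counts were rounded to whole numbers and scaled by TMM. All 13 libraries were fitted together, a mean per group, with edgeR 4.0.16 (quasi-likelihood F test, R 4.3.3), after filterByExpr with a minimum count of 10. Benjamini-Hochberg adjustment ran over every gene in the fit, genes under 0.05 were called, and the SE is the log2 fold change divided by the root of F. Count-based bounds use 3 counts over the group of 0, and intervals are exact at 95%, for counting error. The statistics script was tested on simulated data. No 2 libraries were copies, since the chi-square per degree of freedom between replicates was at least 4.30.

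Members, gene lists (45 programmes and 8 cell type lists) and tests were chosen with earlier results of these data known. From each list, up to 4 called genes per direction with the largest change were eligible for naming if CPM did not overlap between groups and mean TPM was at least 5, along with 16 gene pairs and 10 genes per direction outside the lists with mean TPM of at least 20. Further genes were named as list members. Alternatives were RLE size factors, DESeq2 1.42.0, limma 3.58.1 on log2(TPM + 1) and log2(TPM + 0.1), other filters, other sets of libraries, thinning to the lowest EpiSC total, a replicate block and leaving out each replicate. Promoter windows came from RefSeq (GRCm38.p6). Figures were drawn with matplotlib 3.10.9.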

Additional observations from a re-analysis of the deposited data

Results flagged for a closer look

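Single libraries lay far from the others of their group for 32 gene levels in TPM, by Dixon's test within 4 EpiSC or 5 ESC libraries. Chance flags about 1 in 20 groups, and the genes shown were chosen for their change. ESC replicate 1 was the highest library of its group for Cdx1 (133 TPM, others 29.6 to 50.2 TPM), Notch1 (42.3 TPM, others 17.1 to 23.8 TPM), Slc25a20 (171 TPM, others 59.4 to 75.5 TPM) and Amot (4.16 TPM, others 0.24 to 1.26 TPM). ESC replicate 3 was the highest library of its group for Dnmt3l (160.3 TPM, others 3.32 to 14.0 TPM), Krt18 (20.6 TPM, others 2.31 to 5.0 TPM), Slc16a3 (264 TPM, others 23.6 to 46.2 TPM), Slc2a1 (485 TPM, others 129 to 193 TPM), Pgk1 (1515 TPM, others 448 to 737 TPM), Ldha (2831 TPM, others 659.8 to 926 TPM) and Lin28b (4.81 TPM, others 1.36 to 2.30 TPM). ESC replicate 3 was the lowest library of its group for Suz12 (135 TPM, others 249 to 278 TPM). ESC replicate 4 was the highest library of its group for Esrp2 (18.2 TPM, others 10.7 to 12.7 TPM). ESC replicate 5 was the highest library of its group for H19 (246 TPM, others 2.88 to 71.3 TPM), Ccnd2 (6.98 TPM, others 0 to 1.36 TPM), Ptch1 (43.0 TPM, others 26.2 to 30.1 TPM), Vcl (66.7 TPM, others 39.2 to 44.6 TPM), Zyx (13 TPM, others 5.41 to 6.69 TPM), Igf2 (104 TPM, others 0.77 to 13.4 TPM) and Hs6st2 (4.32 TPM, others 0 to 0.72 TPM). ESC replicate 5 was the lowest library of its group for Khdrbs2 (256 TPM, others 445 to 469.8 TPM). EpiSC replicate 1 was the highest library of its group for Trim25 (17.3 TPM, others 0.48 to 1.10 TPM), Car4 (77.5 TPM, others 5.36 to 9.96 TPM), Tdh (43.1 TPM, others 3.76 to 5.78 TPM), Ldhb (286 TPM, others 117 to 132 TPM), Psma8 (1.48 TPM, the others at 0) and Galnt6 (3.09 TPM, others 0 to 0.49 TPM). EpiSC replicate 1 was the lowest library of its group for Smo (78.5 TPM, others 100.0 to 104 TPM), Mtf2 (50.4 TPM, others 60.7 to 62.3 TPM) and Pcdh1 (14.6 TPM, others 68.6 to 71.4 TPM). EpiSC replicate 3 was the highest library of its group for Khdrbs2 (65.4 TPM, others 50.1 to 52.1 TPM). EpiSC replicate 4 was the highest library of its group for Plagl1 (27.4 TPM, others 2.79 to 6.64 TPM).

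Some genes changed differently in ESC over EpiSC than in kiPSC over kEpiSC, by the test of the difference in the same edgeR model. Klf4 had a log2 fold change of 7.18 in ESC and 1.72 in kiPSC, a difference of 5.45 (adjusted p = 0.00081). Smad7 had a log2 fold change of 0.42 in ESC and 2.16 in kiPSC, a difference of -1.74 (adjusted p = 0.0357). Khdrbs2 had a log2 fold change of 3.21 in ESC and -0.28 in kiPSC, a difference of 3.49 (adjusted p = 0.00597). Nodal had a log2 fold change of -0.48 in ESC and 2.24 in kiPSC, a difference of -2.72 (adjusted p = 0.0371). Pmepa1 had a log2 fold change of -1.60 in ESC and 0.66 in kiPSC, a difference of -2.26 (adjusted p = 0.0357). Zfp977 had a log2 fold change of 9.86 in ESC and 4.05 in kiPSC, a difference of 5.82 (adjusted p = 0.0379); it had 0 counts in EpiSC, so the fitted values depend on the prior count, and it was at least 66.2-fold higher in ESC. kEpiSC carry a Klf4 transgene, so the Klf4 levels of that comparison include it.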

How the results depend on the processing

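The ESC against EpiSC calls (7092; 3773 higher and 3319 lower) stayed within 1.5 times in every alternative run but one, in which ESC replicate 5 alone gave 2002 lower genes. Leaving out each library in turn gave 6198 to 7151 calls, 3281 to 4112 higher and 2917 to 3400 lower. Numbers shared by replicates did not pair the libraries (correlations of deviations -0.0547 to 0.0559), and the replicate block gave 6902 calls. For ESC replicate 5 against replicates 1 to 4 (128 genes), DESeq2 gave 631, all 38 libraries 1167, limma on log2(TPM + 0.1) 58, only ESC and EpiSC 22, thinned libraries 41 and leave-one-out 36 to 81, and its block could not be fitted. Among those calls the share higher was 68.0%, against 49.9% by DESeq2 and 19% by limma on log2(TPM + 0.1). kiPSC against kEpiSC (5394) gave 3197 to 3972 with a library left out. The difference between comparisons (20) gave 170 by DESeq2, 1 with ESC replicate 5 only, 37 with the ESC that have a strain label, 3 with those that have none, 250 with all 38 libraries, 70 with the replicate block and 1 to 82 with a library left out. Its genes therefore depend on the setting, and the cause was not tested. Of 129 named genes followed over the settings, 112 kept their call in every one and 122 in every setting other than ESC subsets, and 0 reversed. Split by biotype, chosen after seeing the data, 95 to 189 lincRNA genes were higher and 14 to 45 lower over the alternatives. Depth limits low genes, and EpiSC held the fewest counts. Gene length less effective length, depth, medium and sex-linked transcripts differed between groups.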
